A study of Mus musculus with 8 samples.

Results

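The genes described are 30 that encode proteins of blood coagulation and fibrinolysis, chosen by symbol in the GENCODE M21 annotation from the 55450 genes of the deposited table. They comprise 16 clotting factors, 8 coagulation inhibitors and 6 genes of fibrinolysis, which removes clots. RNA sequencing covered 8 mouse livers: 4 came from animals given AAV-H19 and 4 from animals given AAV-Null. All 8 mice were fed an ethanol diet, so both groups share that diet and no liver without ethanol was analysed here. AAV is an adeno-associated virus used as a gene carrier; AAV-H19 is named for the long noncoding RNA H19 and AAV-Null is its control by name. The labels give no strain, sex, age, promoter or vector dose, and they identify each liver by a number, 25 to 28 for AAV-H19 and 21 to 24 for AAV-Null. Nothing in them says how the animals were housed or when the livers were taken. A difference of that kind between the groups could not be told apart from the vector, and p-values do not account for it.

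Most plasma clotting proteins are made by hepatocytes and secreted as inactive precursors. A cascade of serine proteases ends in thrombin, which cuts fibrinogen to fibrin, while serpins, the protein C system and tissue factor pathway inhibitor restrain it. Plasmin, cut from plasminogen, dissolves fibrin, and alcohol-associated liver disease is known for disturbed clotting. Several of these genes, fibrinogen above all, are also known to respond to interleukin-6 as part of the acute-phase response.

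The deposited values are estimated counts per gene, given here as CPM, counts per 1000000 of a library's TMM-scaled total. Library totals were 63.7 to 78.8 M units in AAV-H19 livers and 78.3 to 82.99 M units in AAV-Null livers. H19 itself averaged 128 ± 21.4 CPM in AAV-H19 livers and 0.601 ± 0.562 CPM in AAV-Null livers (SD, n = 4 each), and every library fitted its label. Hepatocyte markers summed to 124890 to 134032 CPM in AAV-H19 livers and 88774 to 130680 CPM in AAV-Null livers, with albumin (Alb) first in each library. Of 12 such markers, 6 had a positive and 6 a negative log2 fold change. By edgeR 1 was higher (Cps1, 1.38, adjusted p 0.0102) and 1 lower (Asgr1, -0.90, adjusted p 0.0493). That is 8.33% in each direction, against 5.6% higher and 6.07% lower of all genes tested. Across 13538 protein-coding genes the log2 fold change rose with transcript length (Spearman rho 0.502, a description over genes that share the same libraries). Among the 30 coagulation genes that rho was 0.0794. In single libraries, log2 CPM relative to a gene's mean followed length with a rho of 0.239 to 0.484 in AAV-H19 livers. In AAV-Null livers it was -0.434 to -0.131, without overlap, so the length trend and the group cannot be told apart. A second fit carried an offset for the length trend of each library and may also remove a real difference between groups. Its value is plotted for all 30 genes by role, and is given in the text where it ends a call and for some other genes. In that fit neither Cps1 (0.95, adjusted p 0.0722) nor Asgr1 (-0.51, adjusted p 0.172) passed.

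All 30 coagulation genes passed the filter on low counts. Only 2 rose in AAV-H19 livers and 0 fell at an adjusted p under 0.05 in edgeR, the rises being the protease inhibitor Pzp and the cofactor F5. That is 6.67% higher, against 5.6% of the 16672 genes tested, and 0 lower, against 6.07% of the genes tested. At an unadjusted p under 0.05 the count was 9 of 30, against 29.8% of all genes tested. DESeq2 called 7 of 30 higher, against 9.68% of all genes tested, and 2 lower, against 12% of them. The 7 were F5, F8, Fga, Pros1, Plg, Hrg and Pzp, and the 2 were Serpina10 and Tfpi. Below, a call or a passed test is by edgeR unless DESeq2 is named. The 2 groups of livers did not overlap for 7 of the 30 genes (23.3%), against 23.7% of all genes tested. With the length offset 0 of 30 were called, against 2.55% of all genes. By edgeR without the offset the shares were near the background for genes called higher and for groups that did not overlap. The median log2 fold change of the 30 genes was 0.05, ranging from -0.73 to 1.39, against a median of -0.02 over all genes tested. In bulk tissue, fewer cells of a type and less RNA per cell cannot be told apart.

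**Figure D1:**
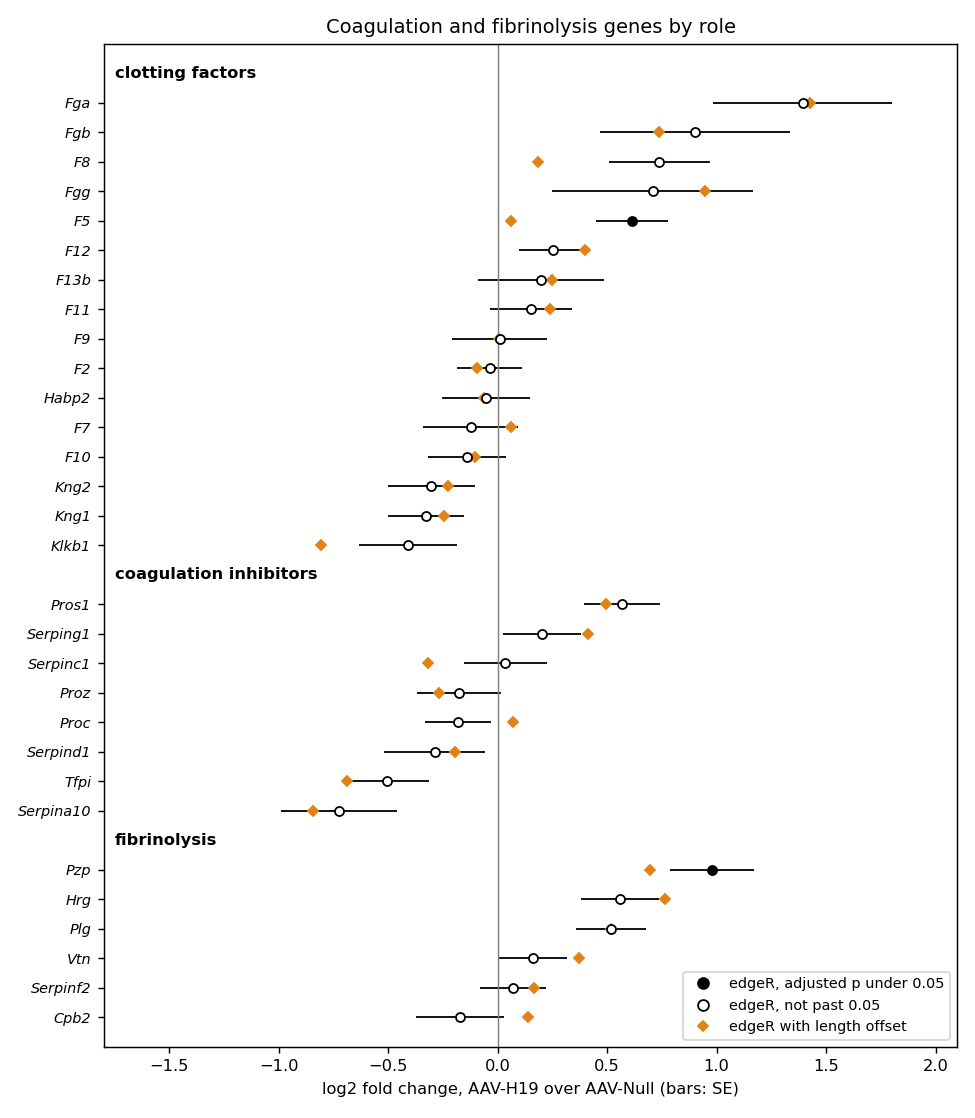
Log2 fold change of each of the 30 genes, AAV-H19 over AAV-Null, with its standard error as a bar, grouped by role; filled points pass an adjusted p of 0.05 and orange diamonds give the fit with the length offset. Pzp and F5 are the 2 filled points, at 0.98 and 0.61, and the F5 diamond lies at 0.06.

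By role, the clotting factors had 1 gene called higher and 0 lower of 16, with a median log2 fold change of 0.08. The inhibitors had 0 called in either direction of 8, with a median of -0.18. The fibrinolysis genes had 1 called higher and 0 lower of 6, with a median of 0.34. Summed CPM of the fibrinolysis genes lay between 8216 and 10269 in AAV-H19 livers and between 6079.6 and 7039 in AAV-Null livers, without overlap. Pzp alone averaged 3386 and 1717 CPM of mean sums of 9200 and 6403 CPM. The 6 genes include inhibitors of fibrinolysis, Serpinf2 and Cpb2, and Pzp is itself a protease inhibitor, so the sum does not measure clot removal. The inhibitors summed to 3625 to 4059 CPM in AAV-H19 livers and 3379.8 to 5066 CPM in AAV-Null livers, which overlapped. All 30 genes together made up 3.26% to 5.15% of a library in AAV-H19 livers and 2.38% to 3.78% in AAV-Null livers.

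Fibrinogen is a protein of 3 chains, each encoded by a gene of its own in a cluster on chromosome 3: Fga for Aα, Fgb for Bβ and Fgg for γ. In the GRCm38 annotation Fgg lies at chr3:83007724-83015049 on the plus strand, Fga at chr3:83026076-83033627 on the plus strand and Fgb at chr3:83040141-83049863 on the minus strand. The 250 bases before each RefSeq start (build GRCm38.p6) are shown because the levels of the 3 genes varied together between livers. The Fga window stops 77 bases short of the RefSeq start, where the GENCODE gene model begins. Capitals mark matches, on either strand, to 3 motifs: CTGGGAA for the interleukin-6 response element, TTCNNNGAA for STAT factors and TTGCNNAA for C/EBP factors. Fga is read on the plus strand from chr3:83025903-83026075, Fgb on the minus strand from chr3:83049864-83050113 and Fgg on the plus strand from chr3:83007474-83007723.
Fga: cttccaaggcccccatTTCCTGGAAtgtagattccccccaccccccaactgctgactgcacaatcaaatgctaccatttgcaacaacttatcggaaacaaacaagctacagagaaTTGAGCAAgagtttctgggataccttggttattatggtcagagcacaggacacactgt
Fgb: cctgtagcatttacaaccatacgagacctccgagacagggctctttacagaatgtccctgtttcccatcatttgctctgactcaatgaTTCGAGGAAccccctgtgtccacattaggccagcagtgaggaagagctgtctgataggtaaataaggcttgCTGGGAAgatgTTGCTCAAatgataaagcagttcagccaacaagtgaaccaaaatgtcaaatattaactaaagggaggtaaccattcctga
Fgg: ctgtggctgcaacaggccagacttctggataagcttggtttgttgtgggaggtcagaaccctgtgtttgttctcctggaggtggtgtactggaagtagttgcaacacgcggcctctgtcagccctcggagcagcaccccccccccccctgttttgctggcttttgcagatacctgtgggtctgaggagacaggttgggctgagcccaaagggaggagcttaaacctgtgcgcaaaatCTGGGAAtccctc
The Fgb window holds a match to all 3 motifs. Fga holds the STAT and C/EBP letters. Fgg holds the interleukin-6 element letters, 13 bases before the start. Matches are descriptions and do not mark bound sites. Of all 32851 RefSeq windows of this length, 9.10% hold CTGGGAA, 7.02% TTCNNNGAA and 9.56% TTGCNNAA. Among the 25 coagulation genes with a window, the same letters occur in 4, 4 and 8 genes.

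Fga had 11173, 4842, 6632 and 5791 CPM in AAV-H19 livers 25 to 28, against 1795, 2153, 1675 and 5211 CPM in AAV-Null livers 21 to 24. Its log2 fold change was 1.39 ± 0.41 (SE, adjusted p 0.0534). The groups overlap because AAV-Null 24 lies above AAV-H19 26; the other 3 AAV-Null livers are all below every AAV-H19 liver.

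Fgb had 13469, 4910.1, 7218 and 7463 CPM in AAV-H19 livers, against 2965, 3328, 2635 and 8786 CPM in AAV-Null livers, with a log2 fold change of 0.90 ± 0.43 (SE, adjusted p 0.196). Fgg had 9920.1, 3731, 5436 and 5691 CPM in AAV-H19 livers, against 2223, 3096, 1985 and 7855 CPM in AAV-Null livers, with a log2 fold change of 0.71 ± 0.46 (SE, adjusted p 0.332). For all 3 chains AAV-H19 25 was the highest AAV-H19 liver and AAV-Null 24 the highest AAV-Null liver.

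None of the 3 chains passed the edgeR test with all 8 livers, while the DESeq2 test called Fga higher. Without AAV-Null 24, Fga rose with a log2 fold change of 1.93 (adjusted p 0.0201) and Fgb with 1.48 (adjusted p 0.0401). In the other fits without a single liver neither passed, with adjusted p up to 0.152 for Fga and 0.469 for Fgb. With the length offset Fga had 1.43, Fgb 0.74 and Fgg 0.95, and none passed. Fga also passed with values divided by 4 (adjusted p 0.0468). The coefficient of variation was 39.5%, 44.2% and 42.5% for Fga, Fgb and Fgg in AAV-H19 livers and 62.0%, 65.9% and 72.6% in AAV-Null livers. For the other 27 genes its median was 9.51% (4.03% to 26.4%) in AAV-H19 livers and 20.7% (4.05% to 49.3%) in AAV-Null livers. Of 15 acute-phase and interleukin-6 genes, AAV-H19 25 was the highest AAV-H19 liver for 12 and AAV-Null 24 the highest AAV-Null liver for 9. Over the 30 coagulation genes these counts were 14 and 5. AAV-Null 22 was the highest AAV-Null liver for 4 of the 15, Apcs and Saa3 among them. Lcn2, a secreted iron-carrier protein of the acute-phase response, is an example not picked by the rule for naming genes. It had 1003, 162, 484 and 294 CPM in AAV-H19 livers and 126, 29.9, 115 and 866 CPM in AAV-Null livers. The part of the acute-phase response in the fibrinogen values was not tested.

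**Figure D2:**
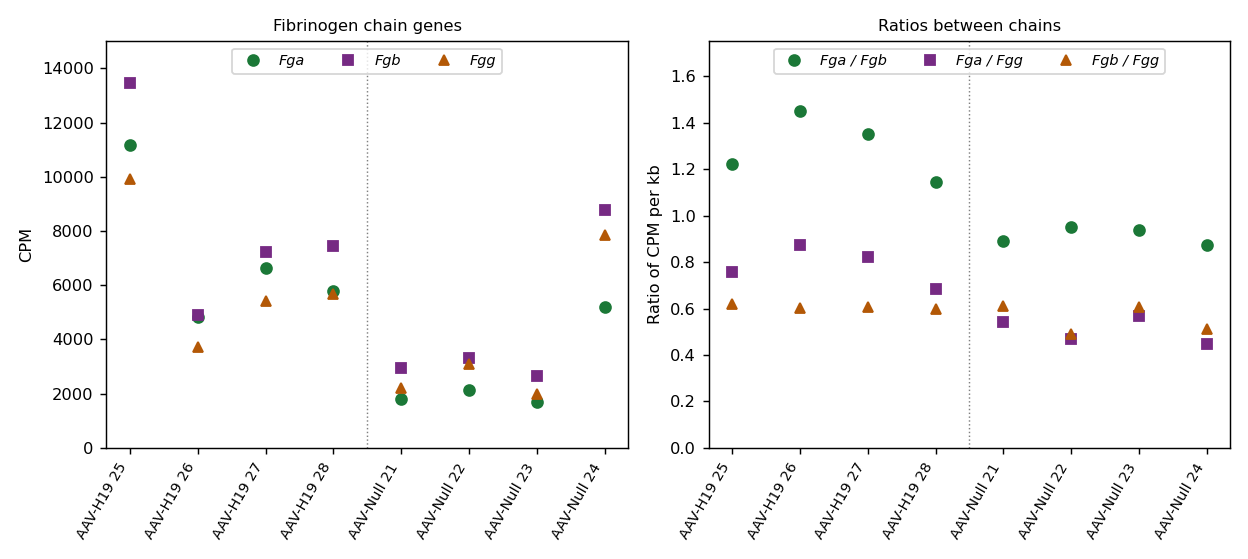
Left, CPM of Fga, Fgb and Fgg in each liver; right, the ratio of each pair of chains per kb of transcript in each liver. AAV-Null 24 stands with the AAV-H19 livers in level, but its Fga to Fgb ratio of 0.874 lies with the other AAV-Null livers.

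The balance between the chains was compared within each liver, where the scale of a library cancels. This comparison was chosen after the values were seen, so its p-values describe the separation and do not test it. The 3 ratios share chains, so their adjusted values do not stand for separate tests. The ratio of Fga to Fgb per kb was 1.22, 1.45, 1.35 and 1.14 in AAV-H19 livers 25 to 28, against 0.892, 0.953, 0.936 and 0.874 in AAV-Null livers 21 to 24. Every AAV-H19 liver lay above every AAV-Null liver (exact two-sided permutation p 0.0286, the smallest that 4 against 4 allows; adjusted over the 3 ratios 0.0429). Fga to Fgg was 0.758, 0.873, 0.821 and 0.685 in AAV-H19 livers, against 0.543, 0.468, 0.568 and 0.447 in AAV-Null livers, again without overlap (exact permutation p 0.0286, adjusted 0.0429). Fgb to Fgg was 0.620, 0.601, 0.607 and 0.599 in AAV-H19 livers, against 0.609, 0.491, 0.607 and 0.511 in AAV-Null livers, and the groups overlapped (exact permutation p 0.257). On the log2 scale the fold change of Fga exceeded that of Fgb by 0.49, and by 0.69 with the length offset, and exceeded that of Fgg by 0.68, and by 0.48 with the offset. Leaving out any 1 liver kept these differences at 0.45 to 0.53 and 0.58 to 0.73. The Fgb minus Fgg difference was 0.19, with the offset -0.21.

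Pzp, pregnancy zone protein, is a protease inhibitor of the α2-macroglobulin family, whose proteins trap proteases in plasma. It lies at chr6:128483567-128526720 on the minus strand (GRCm38). Pzp had 3676, 3427, 3670.1 and 2773 CPM in AAV-H19 livers 25 to 28, against 2089, 1278, 1802 and 1698 CPM in AAV-Null livers 21 to 24. The mean was 3386 ± 425 CPM in AAV-H19 livers and 1717 ± 336 CPM in AAV-Null livers (SD, n = 4 each), a log2 fold change of 0.98 ± 0.19 (SE, adjusted p 0.0208). All 4 AAV-H19 livers lay above all 4 AAV-Null livers. The call was lost with the length offset (0.69, adjusted p 0.0538) and without AAV-H19 25, 26 or 27 (adjusted p 0.0736, 0.062 and 0.0825).

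**Figure D3:**
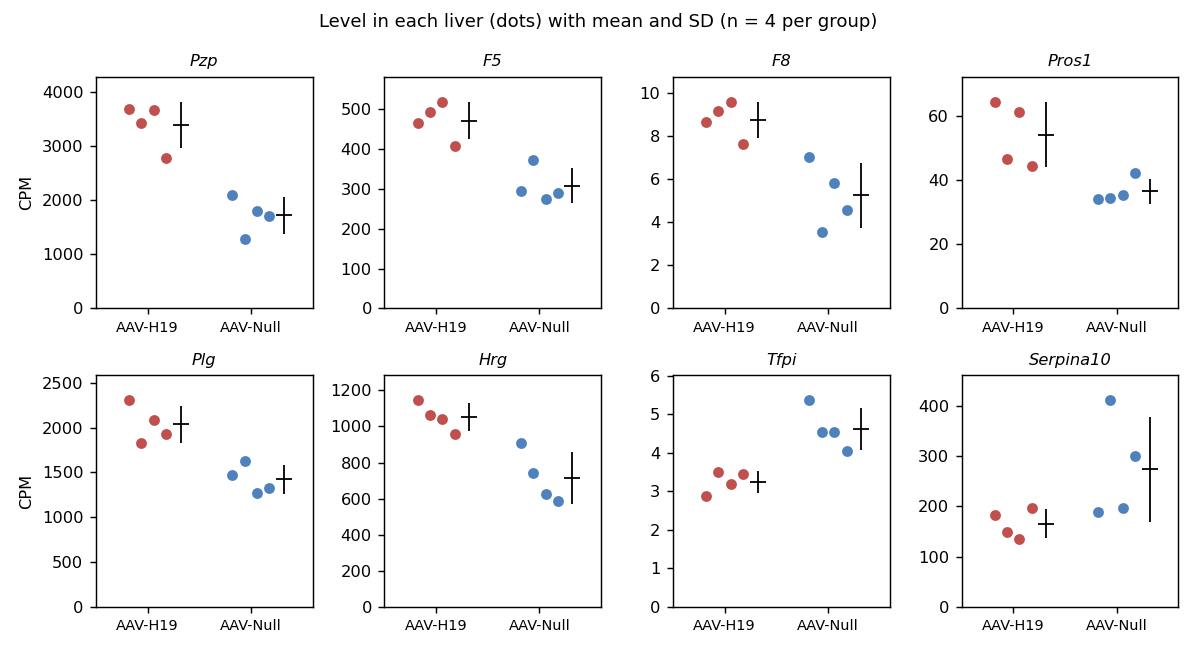
CPM of 8 coagulation genes in each liver, with the mean and SD over 4 livers per group. Pzp, F5, F8, Pros1, Plg and Hrg do not overlap with AAV-H19 above; Tfpi does not overlap with AAV-H19 below, and Serpina10 overlaps.

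Plasminogen, from Plg, is the precursor of plasmin. It had 2304, 1826, 2081 and 1931 CPM in AAV-H19 livers, against 1473, 1627, 1266 and 1328 CPM in AAV-Null livers, a log2 fold change of 0.52 ± 0.16 (SE, adjusted p 0.0616). Each AAV-H19 liver lay above each AAV-Null liver, though the edgeR test was not passed. Among fits without a single liver it was passed only without AAV-Null 22 (0.58, adjusted p 0.0279), with adjusted p up to 0.179 in the others. With the length offset Plg had 0.52 (adjusted p 0.107). Hrg, histidine-rich glycoprotein, which binds plasminogen and heparin, had 1145, 1066, 1043 and 956 CPM in AAV-H19 livers, against 907, 742, 627 and 585 CPM in AAV-Null livers. Its log2 fold change was 0.56 ± 0.18 (SE, adjusted p 0.0687), with the length offset 0.77 (adjusted p 0.0602), and the groups did not overlap. Among fits without a single liver Hrg passed only without AAV-Null 21 (0.69, adjusted p 0.0417), with adjusted p up to 0.179 in the others. The other genes of this role did not pass: Serpinf2, the main plasmin inhibitor, had a log2 fold change of 0.07 ± 0.15. Vtn, vitronectin, an adhesion protein of plasma and matrix, had 0.16 ± 0.16. With the offset these 2 values were 0.17 and 0.37. Cpb2, the carboxypeptidase that trims fibrin against plasmin, had -0.17 ± 0.20 (SE each), positive at 0.14 with the offset.

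F5 encodes factor V, the cofactor that speeds thrombin formation, at chr1:164151838-164220277 on the plus strand (GRCm38). It had 464, 493, 516 and 408 CPM in AAV-H19 livers, against 294, 373, 275 and 289.6 CPM in AAV-Null livers. The means were 470.3 ± 46.8 CPM in AAV-H19 livers and 308 ± 44.1 CPM in AAV-Null livers (SD, n = 4 each), a log2 fold change of 0.61 ± 0.16 (SE, adjusted p 0.042). Its transcript of 7430 bases is long, and with the length offset the log2 fold change was 0.06 (adjusted p 0.89). Without a single liver it passed only when AAV-Null 22 was left out (adjusted p 0.0159) and otherwise reached up to 0.133, without AAV-H19 27. It also missed the threshold with DESeq2 size factors (adjusted p 0.0543), upper-quartile factors (0.0644) and no filter (0.0598).

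F8, factor VIII, the cofactor of factor IX, is known to come from sinusoidal endothelial cells of the liver. It had 8.64, 9.15, 9.56 and 7.63 CPM in AAV-H19 livers, against 7.02, 3.55, 5.84 and 4.58 CPM in AAV-Null livers, a log2 fold change of 0.74 ± 0.23 (SE, adjusted p 0.0641). The groups did not overlap, the transcript has 9784 bases, and with the offset the value was 0.18. Among fits without a single liver F8 passed only without AAV-Null 21 (0.90, adjusted p 0.0387), with adjusted p up to 0.17 in the others.

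Tfpi, tissue factor pathway inhibitor, which blocks the start of the cascade and is known from endothelium, ran the other way. It had 2.87, 3.505, 3.19 and 3.44 CPM in AAV-H19 livers, against 5.37, 4.53, 4.53 and 4.06 CPM in AAV-Null livers, a log2 fold change of -0.51 ± 0.20 (SE, adjusted p 0.113). The groups did not overlap, and with the offset the value was -0.69 (adjusted p 0.0739). Sinusoidal endothelial markers summed to 306 to 385 CPM in AAV-H19 livers and 216 to 380 CPM in AAV-Null livers. Among the 10, Cdh5 was higher (0.99, adjusted p 0.0494) and Clec4g lower (-0.56, adjusted p 0.0355). That is 10% in each direction, against 5.6% higher and 6.07% lower of all genes tested. Both calls were lost with the length offset, at 0.82 (adjusted p 0.105) for Cdh5 and -0.26 (adjusted p 0.274) for Clec4g. Their part in the F8 and Tfpi values was not tested. Of 8 platelet markers 5 were at 0 in at least 1 library, and all 8 summed to 2.72 to 3.60 CPM in AAV-H19 livers and 4.02 to 4.77 CPM in AAV-Null livers. The 3 that were tested summed to 2.69 to 3.398 CPM in AAV-H19 livers and 3.378 to 4.39 CPM in AAV-Null livers, which overlap.

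The vitamin K-dependent proteins carry γ-carboxyglutamate residues that bind calcium and membranes. Of the 7 among these genes, F2, F7, F9, F10, Proc, Pros1 and Proz, 0 passed the edgeR test. Their median log2 fold change was -0.12, with the length offset 0.00478. F2, prothrombin, had 1744, 1751, 1652 and 1881 CPM in AAV-H19 livers, against 1823, 1983, 1580.1 and 1826 CPM in AAV-Null livers. Its log2 fold change was -0.04 ± 0.15 (SE, adjusted p 0.891), and the groups overlapped.

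Pros1, protein S, the cofactor of activated protein C, had 64.4, 46.5, 61.1 and 44.3 CPM in AAV-H19 livers, against 34.0, 34.5, 35.2 and 42.2 CPM in AAV-Null livers. Its log2 fold change was 0.57 ± 0.17 (SE, adjusted p 0.0606), with no overlap between groups, and 0.49 with the length offset (adjusted p 0.128). The others had log2 fold changes of -0.12 ± 0.22 for F7, which starts the cascade with tissue factor, and 0.01 ± 0.22 for F9, the gene altered in haemophilia B. F10, which makes the enzyme that cuts prothrombin, had -0.14 ± 0.18; Proc, protein C, had -0.18 ± 0.15; Proz, the cofactor of the factor Xa inhibitor, had -0.18 ± 0.19 (SE each).

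The contact system, F11, F12, Klkb1, Kng1 and Kng2, starts clotting on foreign surfaces and releases bradykinin. None of the 5 passed, and the median log2 fold change was -0.30. Kng1, kininogen, had 1781, 1590.4, 1694 and 1751 CPM in AAV-H19 livers, against 2006, 2673, 1694 and 2188 CPM in AAV-Null livers (log2 fold change -0.33 ± 0.17 SE, adjusted p 0.237). Kng2 is a near copy of Kng1, so reads could be split between them, and it had -0.30 ± 0.20 (SE). Klkb1, plasma prekallikrein, had 132, 126, 132 and 119 CPM in AAV-H19 livers, against 158, 254, 134 and 129.7 CPM in AAV-Null livers (log2 fold change -0.41 ± 0.22 SE, adjusted p 0.251). The value was -0.81 with the length offset. It overlaps the gene Gm45753, and with overlapping genes summed it was -0.12. AAV-Null 22 was the highest of the 8 livers. F12, the first zymogen of the system, had 0.25 ± 0.16, and F11, which activates factor IX, had 0.15 ± 0.19 (SE each); with the offset they had 0.40 and 0.24.

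Serpina10, the factor Xa inhibitor that works with protein Z, had 183, 149, 135 and 196 CPM in AAV-H19 livers, against 189, 411, 196 and 299 CPM in AAV-Null livers. Its log2 fold change of -0.73 ± 0.27 (SE, adjusted p 0.101) was the lowest of the 30, and AAV-H19 28 lies above AAV-Null 21. With the length offset Serpina10 had -0.84 (adjusted p 0.125). Serpinc1, antithrombin, the main inhibitor of thrombin, had 1602, 1777, 1835 and 2165 CPM in AAV-H19 livers, against 1611, 2351, 1514 and 1727 CPM in AAV-Null livers (log2 fold change 0.03 ± 0.19 SE, adjusted p 0.922). With the offset it was -0.32. Serpind1, heparin cofactor II, had -0.29 ± 0.23, and Serping1, the C1 inhibitor, had 0.20 ± 0.18 (SE each), the second 0.41 with the offset.

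F13b, the carrier subunit of the enzyme that cross-links fibrin, had a log2 fold change of 0.20 ± 0.29. Among fits without a single liver it passed only without AAV-Null 22 (0.59, adjusted p 0.0368), with adjusted p up to 0.963 in the others. Habp2, a protease that cuts factor VII, had -0.05 ± 0.20 (SE each). AAV-Null 22 was the highest AAV-Null liver for 17 of the 30 genes, and AAV-H19 25 the highest AAV-H19 liver for 14.

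Levels between genes were compared as CPM per kb of the longest transcript. In AAV-H19 livers the order began with Fgg at 3558, Fga at 2748 and Fgb at 2169, then Vtn at 981, Kng1 at 756, Plg at 738 and Pzp at 723. In AAV-Null livers it began with Fgg at 2177, Fgb at 1162, Fga at 1047, Kng1 at 949, Vtn at 877, F2 at 569 and Plg at 516 (mean CPM per kb, n = 4). Over livers the SDs of the 3 chains overlapped in each group, but within each of the 8 livers Fgg per kb lay above both others, as the ratios show. That order depends on the transcript length used. In plain CPM Fgb lay above Fgg in every liver, with ratios of 1.31 to 1.36 in AAV-H19 livers and 1.07 to 1.33 in AAV-Null livers. The plain ratio of Fga to Fgg was 1.02 to 1.30 in AAV-H19 livers and 0.663 to 0.844 in AAV-Null livers. The SDs of Kng1, Plg and Pzp overlapped in AAV-H19 livers, as did those of Kng1 and Vtn and those of F2 and Plg in AAV-Null livers. At the other end, Pros1 had 16.4 ± 3.06, F8 0.894 ± 0.085 and Tfpi 0.819 ± 0.0727 in AAV-H19 livers. In AAV-Null livers Pros1 had 11.05 ± 1.17, Tfpi 1.17 ± 0.137 and F8 0.536 ± 0.154 CPM per kb (SD, n = 4 each).

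**Figure D4:**
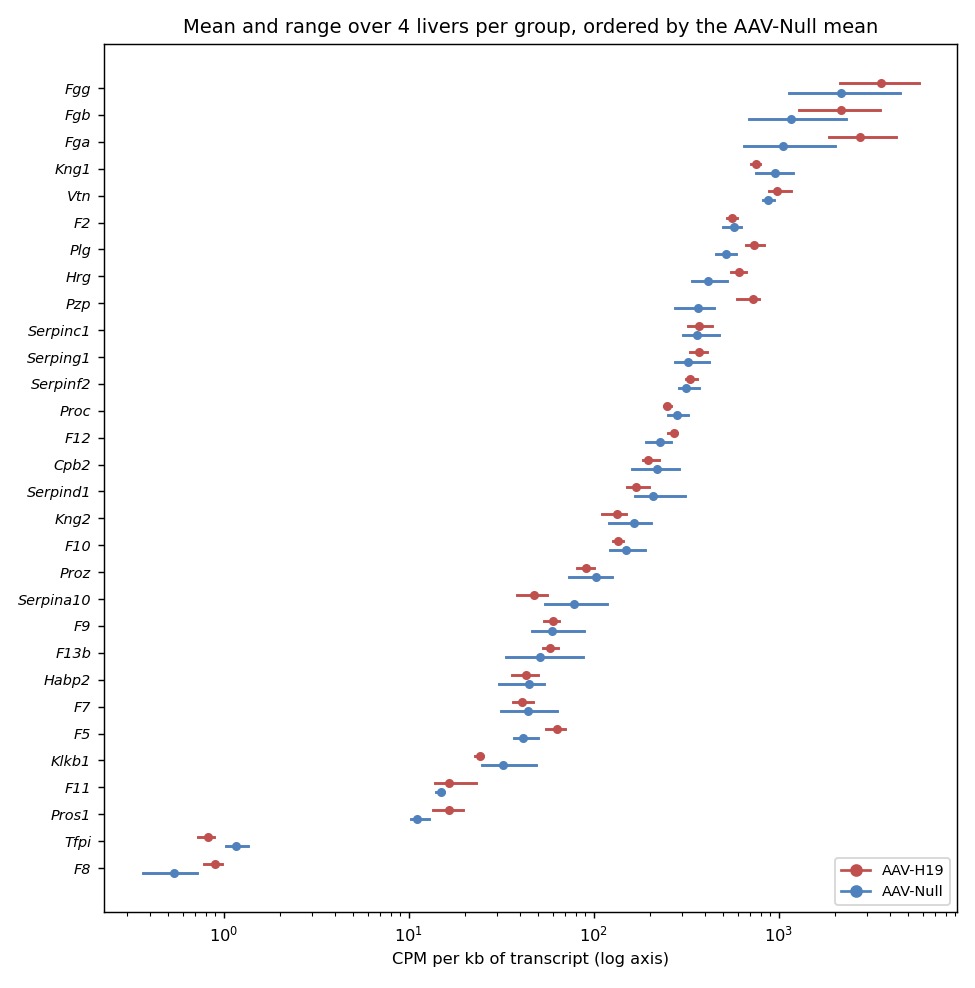
Mean (dot) and range (line) of CPM per kb of transcript over 4 livers per group, on a log axis, ordered by the AAV-Null mean. Per kb of the longest transcript, Fgg stands first in both groups, at 3558 in AAV-H19 livers and 2177 in AAV-Null livers.

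Genes that process, carry or regulate these proteins were counted by list. Of 12 genes of the vitamin K cycle, processing and secretion, 4 rose (Furin, Ggcx, Pcsk6 and Lman1) and 1 fell (Nqo1). That is 33.3% higher, against 5.6% of all genes tested, and 8.33% lower, against 6.07%. With the length offset only 1 of the 12, Furin, passed (0.88, adjusted p 0.0434), against 2.55% of all genes called in either direction. In that fit Nqo1 had -0.57 (adjusted p 0.113), Pcsk6 0.49 (adjusted p 0.108) and Lman1 0.30 (adjusted p 0.401).

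Furin, the protease that cuts pro-factors to their mature forms, had 328, 256, 327 and 262 CPM in AAV-H19 livers, against 161, 80.7, 149 and 95.9 CPM in AAV-Null livers (log2 fold change 1.27 ± 0.24 SE, adjusted p 0.0192). Ggcx, the vitamin K-dependent carboxylase, had 69.3, 64.2, 52.3 and 48.7 CPM in AAV-H19 livers, against 36.9, 35.4, 37.7 and 33.7 CPM in AAV-Null livers (0.71 ± 0.16 SE, adjusted p 0.0277; with the offset 0.68, adjusted p 0.0509). For both genes every AAV-H19 liver lay above every AAV-Null liver. Lman1, a carrier of factors V and VIII from the endoplasmic reticulum, had 292, 284, 259 and 245 CPM in AAV-H19 livers, against 160.1, 221, 145 and 178 CPM in AAV-Null livers (0.62 ± 0.17 SE, adjusted p 0.0468).

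Nqo1, a quinone reductase that can reduce vitamin K, had 29.4, 33.5, 24.1 and 41.1 CPM in AAV-H19 livers, against 54.2, 54.5, 47.1 and 71.8 CPM in AAV-Null livers (log2 fold change -0.83 ± 0.21 SE, adjusted p 0.0345). Pcsk6, a convertase related to furin, had 0.73 ± 0.19 (SE, adjusted p 0.0395) and overlaps Gm45213; with overlapping genes summed its adjusted p was 0.0504 and with upper-quartile factors 0.0622. Vkorc1, the reductase that warfarin blocks, was 106, 53.1, 87.2 and 114 CPM in AAV-H19 livers, against 149, 226, 142 and 130 CPM in AAV-Null livers. Its log2 fold change was -0.84 ± 0.27 (SE, adjusted p 0.0665), with the offset -0.28, and it overlaps Gm21974. Lman1 and Vkorc1 were chosen for mention after their values were seen. Furin lost its call without AAV-H19 25 or 27 (adjusted p 0.068 and 0.0746). Ggcx, Nqo1 and Pcsk6 lost theirs without AAV-H19 25, 26 or 27 or AAV-Null 24, and Pcsk6 also without AAV-H19 28 (adjusted p up to 0.0904 for Ggcx, 0.112 for Nqo1 and 0.117 for Pcsk6).

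**Figure D5:**
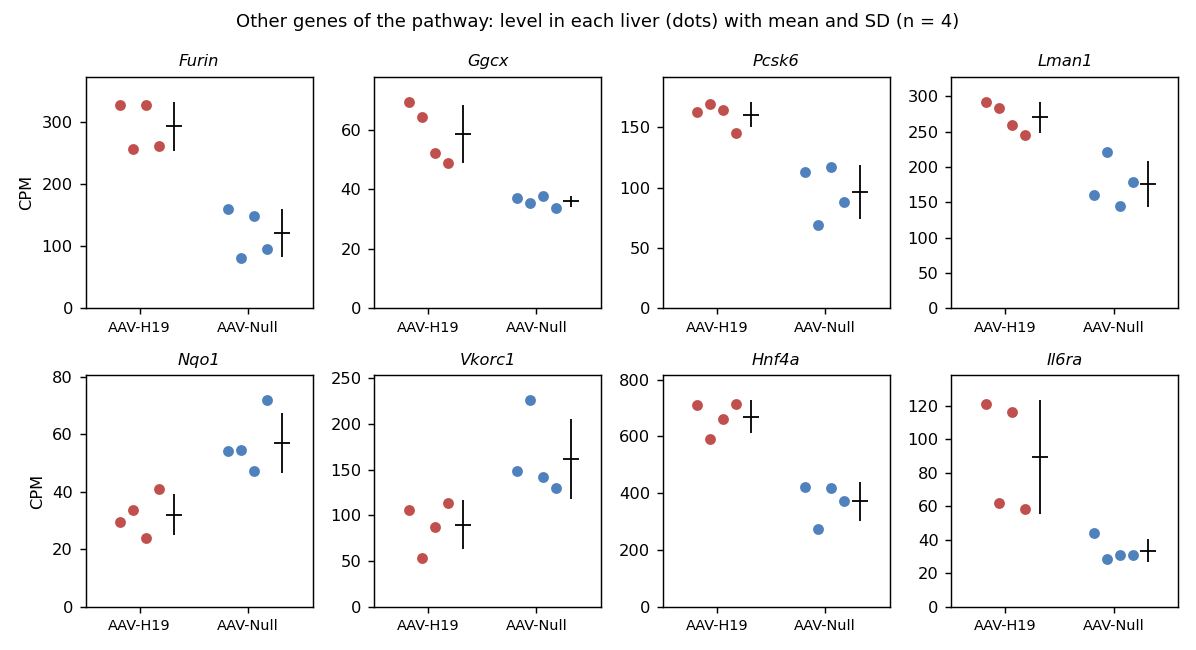
CPM of 8 other genes of the pathway and its regulators in each liver, with the mean and SD over 4 livers per group. Furin, Ggcx, Pcsk6, Lman1, Hnf4a and Il6ra have every AAV-H19 liver above every AAV-Null liver; Nqo1 and Vkorc1 have every AAV-H19 liver below.

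Of 15 tested genes of cell surfaces and vessels, 1 rose (6.67%, against 5.6% of all genes tested) and 0 fell (against 6.07%). That was Thbs1, thrombospondin, at 1.54 ± 0.42 (log2 fold change and SE, adjusted p 0.0448), a call held only without AAV-Null 24 among the leave-one-out fits and lost with the length offset (1.10, adjusted p 0.162). Of 9 tested genes of plasminogen activation, 1 rose (11.1%, against 5.6% of all genes tested) and 1 fell (11.1%, against 6.07%). Lrp1, the receptor that clears protease complexes, had 0.93 ± 0.26 (SE, adjusted p 0.0488) and lost the call without any 1 liver. With the length offset it had 0.35 (adjusted p 0.305). S100a10, a partner of annexin A2 in binding plasminogen, had -0.96 ± 0.25 (SE, adjusted p 0.0397), lost without any AAV-H19 liver or without AAV-Null 24, and with the offset -0.38 (adjusted p 0.369).

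Of 10 hepatocyte transcription factors, 1 rose (10%, against 5.6% of all genes tested) and 0 fell (against 6.07%). Hnf4a, the nuclear receptor known to drive many of these genes, had 711, 590.2, 662 and 714 CPM in AAV-H19 livers, against 421, 275, 417 and 372 CPM in AAV-Null livers (log2 fold change 0.85 ± 0.18 SE, adjusted p 0.0243; with the offset 0.62, adjusted p 0.0649). All 4 AAV-H19 livers lay above all AAV-Null livers, and the call was lost without any 1 AAV-H19 liver (adjusted p up to 0.087, without AAV-H19 27).

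Of 15 acute-phase and interleukin-6 genes, 2 rose (13.3%, against 5.6% of all genes tested) and 2 fell (13.3%, against 6.07%). Il6ra, the interleukin-6 receptor, had 121, 62.0, 116 and 58.3 CPM in AAV-H19 livers, against 43.7, 28.5, 31.0 and 30.9 CPM in AAV-Null livers (log2 fold change 1.41 ± 0.28 SE, adjusted p 0.0213; with the offset 0.84, adjusted p 0.0773). Stat3, its signalling factor, had 1.08 ± 0.26 (SE, adjusted p 0.0336), with the offset 0.62 (adjusted p 0.209). Apcs, serum amyloid P, and Saa3 fell, at -1.26 ± 0.36 (adjusted p 0.0494) and -1.46 ± 0.42 (adjusted p 0.0496). With the offset Apcs had -0.71 (adjusted p 0.163) and Saa3 -1.36 (adjusted p 0.094), so 0 of the 15 passed in that fit. Il6ra lost its call without AAV-H19 25 or 27 (adjusted p 0.0695 and 0.0795), and Stat3 passed only without AAV-Null 24. Apcs and Saa3 lost theirs without any AAV-H19 liver or without AAV-Null 22 or 24 (adjusted p up to 0.145 for Apcs and 0.136 for Saa3). Kupffer cell markers, which lie outside this pathway, fell for 6 of 10 (60%), against 6.07% of all genes tested. With the length offset 1 of 10 fell, against 2.55% of all genes called in either direction. The markers summed to 148 to 210 CPM in AAV-H19 livers and 231 to 406 CPM in AAV-Null livers. Their part in the values above was not tested.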

How the data were processed

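RNA of 8 livers was sequenced from poly(A) libraries made with a TruSeq stranded kit after Direct-Zol extraction, per the labels. HISAT and StringTie are named in the submitters' processing notes; their versions, the build, the annotation and the strand setting were not given in the sources used here. What the authors deposited were estimated counts per gene, whole numbers that showed no normalization; values of 4 are held by 820 to 990 genes per library against 226 to 285 for 3, so a unit may not be a read. Antisense partners could share reads, since the strand setting is unknown. All 55450 identifiers matched GENCODE M21 (GRCm38).

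The 30 genes and all lists were chosen with earlier results of these data known. The genes named are those with adjusted p under 0.05, the smallest p up to 12 in all and 6 set by name, and in each other list up to 4 past the threshold, or the smallest p. Lcn2, Lman1, Vkorc1 and the cell type markers are named outside this rule.

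Genes were kept by filterByExpr of edgeR 4.0.16 (minimum count 10, total 15), leaving 16672; the genes removed held 0.0454% of counts. TMM scaling, the quasi-likelihood test and Benjamini-Hochberg adjustment at 0.05 followed (R 4.3.3; common biological coefficient of variation 0.389). Standard errors are the log2 fold change over the square root of F. Ratios were compared by exact permutation in SciPy 1.17.1. On simulated data with 16174 genes, 17% of 2-fold and 77.8% of 4-fold changes were found, with 8 false calls. Where a length trend was simulated too (16136 genes), 58 unchanged genes were called without the offset and 7 with it. That trend was set to the same size in every library of a group, so these counts do not measure length-driven calls here. Alternatives included DESeq2 1.42.0, other scalings and filters, division by 4, summing overlapping genes, leaving out each library and a length offset, a natural spline (5 degrees of freedom) of log2 CPM on the length of a gene's longest transcript, fitted per library. No library was a copy of another: chi-square over its degrees of freedom was at least 28.0 for every pair. Sequences are from RefSeq, with windows for 25 of the 30 genes. Some genes of the other lists are counted there but not reported here by name.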

Additional observations from a re-analysis of the deposited data

Results flagged for a closer look

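In 90 groups of 4 libraries examined, 8 held a library that stood apart from the other 3 by Dixon's test at the 95% level; chance flags about 1 in 20 groups. Fga in AAV-Null 24 was 5211 CPM, against 1675 to 2153 CPM in AAV-Null 21 to 23, and Fgb there was 8786 CPM, against 2635 to 3328 CPM. Pros1 in AAV-Null 24 was 42.2 CPM, against 34.0 to 35.2 CPM. Serpind1 in AAV-Null 22 was 683 CPM, against 364 to 404 CPM. F11 in AAV-H19 27 was 51.7 CPM, against 31.1 to 33.3 CPM in the other 3 AAV-H19 livers. Cpb2 in AAV-H19 25 was 332 CPM, against 271 to 281 CPM. S100a10 in AAV-H19 28 was 193 CPM, against 159 to 164 CPM. Il6ra in AAV-Null 21 was 43.7 CPM, against 28.5 to 31.0 CPM.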

How the results depend on the processing

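The number of coagulation genes called higher was 1 with DESeq2 size factors, 1 with no filter, 1 with upper-quartile factors, 7 with the DESeq2 test, 7 at an adjusted p of 0.1 and 0 with the length offset, and ranged from 0 to 4 when 1 library was left out. It was 0 without AAV-H19 25, 26 or 27, 1 without AAV-H19 28 or AAV-Null 23 and 4 without AAV-Null 22. The number called lower was 2 with the DESeq2 test. Over all genes, higher calls were 1614 with the DESeq2 test, 249 with the offset, 1694 at an adjusted p of 0.1 and 86 to 1023 without 1 library. Lower calls were 1998 with the DESeq2 test, 176 with the offset, 1557 with upper-quartile factors, 1885 at 0.1 and 27 to 1050 without 1 library, the fewest in both directions without AAV-H19 27. Without AAV-H19 25, 26 or 28 higher calls were 128, 206 and 373 and lower calls 53, 98 and 325; lower calls were 498 without AAV-Null 24. Upper-quartile factors shifted the median log2 fold change to -0.13, and higher genes made up 29.6% of calls, against 48.0% with TMM.

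The Fga minus Fgb difference was 0.69 with the offset, Fga minus Fgg 0.48 and Fgb minus Fgg -0.21. The sign of some genes that did not pass turned. With the offset F7 was 0.0590, Serpinc1 -0.32, Proc 0.0678 and Cpb2 0.14; with upper-quartile factors F9 was -0.0937, Serpinc1 -0.0711 and Serpinf2 -0.0363. F9 was also -0.0218 with DESeq2 size factors, -0.0217 with the DESeq2 test, -0.0251 with a filter of 1 CPM in 4 samples and -0.0066 with values divided by 4. Without 1 library F9 ranged from -0.10 to 0.26, Serpinc1 from -0.0526 to 0.19, F2 from -0.11 to 0.00895, F7 from -0.25 to 0.0992, F11 from -0.0477 to 0.23 and Habp2 from -0.20 to 0.0410. The cause of these shifts was not tested.

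Few replicates and the low share of 2-fold changes recovered in simulation limit what absent calls show. No paired analysis was possible because no liver number in the labels occurs in both groups.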
